A study of Mus musculus with 20 samples.

Results

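The gland of the juvenile mouse was compared with the gland at all later ages in whole salivary glands of C57BL/6J mice. The 5 arrays titled 4 wks were set against the 15 arrays titled 8, 12 or 16 wks, with 5 mice at each age and 20 arrays in all. Every mouse was labelled male, no transgene or treatment is named for any of them, and the glands had been freed of lymph nodes. RNA of each mouse was hybridised to its own Affymetrix array, so a value is a log2 signal from a probe set, a group of short probes for a transcript. Each of 18194 genes was represented by the probe set with its highest mean signal. The mean of the 3 later age means minus the mean at 4 weeks was taken as the difference, so a positive difference means a higher signal after 4 weeks. A change was called lasting when the gene passed the test for this difference (adjusted p under 0.05 from limma) and was shifted the same way at each of 8, 12 and 16 weeks with an unadjusted p under 0.05. These 3 comparisons shared the 4 week mice and are not independent of each other.

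The mouse salivary glands are the submandibular, the sublingual and the parotid gland, which differ in their products. Acinar cells make saliva and its secreted proteins, and ducts modify it. In the submandibular gland, the granular convoluted tubules mature from ducts around puberty, under androgens and other hormones, and fill with kallikreins and growth factors. In the weeks after weaning the gland also ceases to grow fast, and the matrix between its lobules matures.

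Several features of the arrays bear on the results. The acinar genes Prol1, Smgc, Aqp5, Bhlha15 and Slc12a2, the ductal kallikrein Klk1 and the myoepithelial gene Acta2 were above the 97th percentile of genes in every array. The ductal keratin Krt19 lay between the 9.39th and the 21.6th percentile, and Krt7 between the 28.15th and the 91.66th. The duct genes Elf5, Ascl3 and Foxi1 were at or above the 73.2th percentile. The other myoepithelial genes checked were lower than Acta2. Cnn1 lay between the 52.4th and the 80.1th percentile, Krt14 between the 52.7th and the 78.95th and Trp63 between the 27.7th and the 64.4th. Xist, the RNA of the inactive X chromosome of females, had log2 signals of 8.96 to 10.72, at or above the 96.3th percentile in all 20 arrays, and the Y-linked gene Eif2s3y stayed at or below the 4.60th percentile. Of the other Y-linked genes, Kdm5d lay between the 12.4th and the 31.2th percentile and Uty between the 30.9th and the 59.4th. The Xist and Eif2s3y values go against the male label at all 4 ages, so they do not separate the ages. Dcpp1, a secreted protein of sublingual and parotid glands, was above 8 in mice 3, 4 and 5 at 4 weeks (log2 signals of 8.25, 8.74 and 8.89) and in mouse 3 at 12 weeks (8.79), and at or below 6.09 in the other 16 mice. Amy1, the parotid amylase, ranged from 5.53 to 11.80 at 4 weeks and from 3.81 to 12.35 at later ages. The spread of signal within an array, as the SD of its gene values, was 1.68 ± 0.14 (SD, n = 5) at 4 weeks and 1.55 ± 0.11 (SD, n = 15) later (difference -0.13). The later ages were not alike in spread, with means of 1.498 at 8, 1.641 at 12 and 1.511 at 16 weeks. A two-sided exact permutation test gave p = 0.0573 for the difference between 4 weeks and all later arrays, or 0.229 when adjusted over 4 measures. The other 3 measures were the median signal and, for RNA quality, the log2 signal at the 3' end minus that at the 5' end of Gapdh and actin. They had p-values of 0.178 to 0.833 by the same exact test. For actin this ran from 1.46 to 3.09 at 4 weeks and from 0.98 to 4.21 later. For Gapdh it ran from 1.67 to 2.85 and from 1.49 to 3.94. The part of RNA quality in the results was not tested. Which mice stand out in gland products and signal spread is shown in the plot of gland products. The part of gland composition and of signal spread in the results was not tested, and counts of the gene groups with and without them are given beside the main groups.

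**Figure D1:**
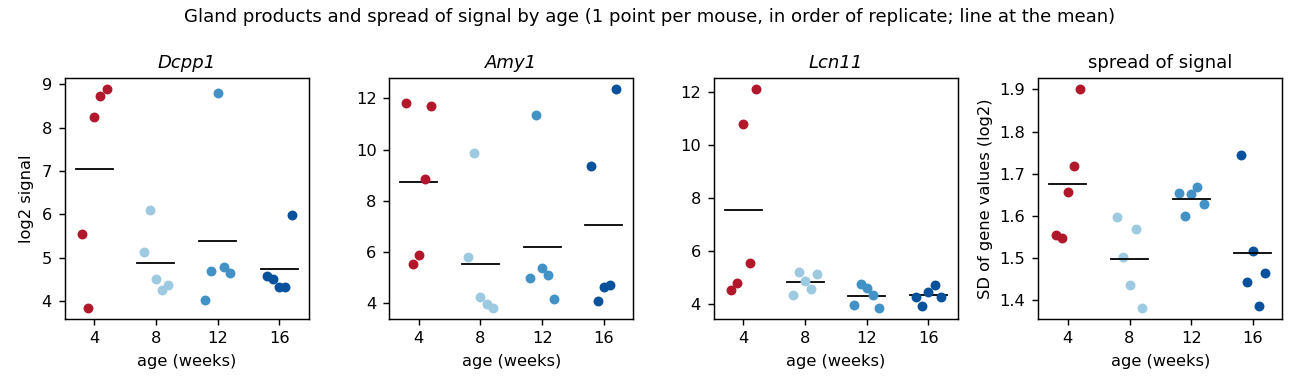
Log2 signal of Dcpp1, Amy1 and Lcn11 and the SD of gene values of an array (vertical axes) by age in weeks (horizontal axis), a point for each mouse and a black bar at the age mean. Dcpp1 was above 8 in 3 mice at 4 weeks and 1 mouse at 12 weeks, and Lcn11 was above 10 in 2 mice at 4 weeks.

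After 4 weeks of age 169 genes were higher (0.929% of 18194) and 408 were lower (2.24%) by limma. Of these, 129 genes were lasting higher (0.709%) and 206 were lasting lower (1.13%). At an unadjusted p under 0.05 the counts were 2292 and 2534 (12.6% and 13.9%). The median difference over all genes was 0.02 on the log2 scale. The lasting higher genes had a median difference of 0.60, with medians of 0.67, 0.51 and 0.56 at 8, 12 and 16 weeks. The lasting lower genes had a median difference of -0.83, with medians of -0.89, -0.65 and -0.93. Among the lasting lower genes, 12 weeks was the later age closest to 4 weeks in 167 of 206. It was also the later age with the mean signal spread closest to that at 4 weeks. In 18 lasting higher and 15 lasting lower genes, the values of the 15 later mice did not overlap those of the 5 juvenile mice (26 genes or 0.143% and 17 genes or 0.0934% of all genes). When adjusted p under 0.05 was asked at each later age, 5 genes were higher and 3 lower. Many lasting genes had probe sets of unlike sign. Of those with more than 1 probe set, all probe sets shared the sign in 36 of 65 higher and 44 of 103 lower genes. The genes just inside the threshold of the difference were Tmem45a2 and Ppp1r15b (adjusted p = 0.04996 and 0.04999 from limma), and just outside were Itgb2 and Lce3b (both 0.05008). In tissue of mixed cells, fewer cells of a type and less RNA per cell cannot be told apart.

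Among the fits that left out 1 mouse, the lasting counts were lowest without mouse 4 or mouse 5 at 4 weeks. Without mouse 4, 7 genes were lasting higher and 14 lasting lower, and without mouse 5 the counts were 7 and 9. With the Dcpp1 signal as a covariate 3 and 6 genes remained, and without the 4 arrays with Dcpp1 above 8 the counts were 16 and 118, of which 7 and 7 were shared. Without these 4 arrays only mice 1 and 2 were left at 4 weeks. A call lost in that fit can therefore not be told apart from the loss of juvenile mice. Lasting in each of the 20 fits that left out 1 mouse were 5 higher genes, Klk1b5, Klk1b16, Klk1b21, Klk1b1 and Wwox, and 9 lower genes, Col3a1, Dusp4, Gnptg, Psph, Slc7a5, Mthfd2, Tcfl5, Mfsd14a and Postn. All but Tcfl5 were also lasting with signal spread as a covariate, a fit in which 53 genes in all were higher and 37 lower. Wwox, Tcfl5 and Mfsd14a fall outside the rule for named genes and were chosen after their values were seen. The following sections begin with the tubule kallikreins, and then give the matrix, cell cycle, amino acid and secretory genes.

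The largest lasting rises were those of kallikreins, secreted serine proteases that the granular tubules store. Klk1b5 was at 6.81, 7.47, 7.21, 7.40 and 7.42 in the 5 mice at 4 weeks, and its later values had a lowest of 7.51, a median of 9.50 and a highest of 11.27. No later mouse overlapped the juvenile ones. The difference was 2.39 on the log2 scale (adjusted p = 0.00126 from limma, standard error 0.33), and the single later ages differed from 4 weeks by 1.76 at 8, 3.41 at 12 and 2.00 at 16 weeks. Klk1b16 rose by 2.66 (standard error 0.38, adjusted p = 0.00187), from 6.66 to 7.90 in juvenile mice to a later lowest, median and highest of 6.87, 9.99 and 11.47. The lowest later mouse, mouse 5 at 8 weeks, lay within the juvenile range. Klk1b21 rose by 1.73 (adjusted p = 0.00424) and its ages did not overlap, as 6.36 to 7.40 at 4 weeks stood against 7.62 to 9.95 later. Klk1b1 rose by 1.55 (adjusted p = 0.00294), and its 5 juvenile values of 5.64 to 5.88 lay close together. Mouse 5 at 8 weeks, at 5.87, lay within this range. Egfbp2, a further member of the family, rose by 1.62 (adjusted p = 0.00928), and the same mouse, at 8.85, lay within its juvenile range.

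Of the list of granular convoluted tubule products, 5 of 11 measured genes were lasting higher (0.709% of all genes) and 0 were lower, with a median difference of 1.06 against 0.02 over all genes. The 5th was Klk1b24, which rose by 1.06 (adjusted p = 0.035). Klk1b7-ps, a pseudogene of the family that is not on the list, rose by 1.06 (adjusted p = 0.0112) and its ages did not overlap. Klk1, the tissue kallikrein of striated ducts, was already at 12.32, 12.39, 12.87, 12.98 and 12.72 at 4 weeks and did not pass the test (difference 0.26, standard error 0.32, adjusted p = 0.62). Klk1b8, Klk1b11 and Klk1b27 had differences of 0.90, 0.80 and 1.20 and did not pass (adjusted p = 0.0727, 0.164 and 0.0757), nor did the growth factor Egf (0.13, adjusted p = 0.81). These genes have similar sequences, so a probe set can pick up RNA of its neighbours, and their rises are not separate counts. In each of Klk1b5, Klk1b16, Klk1b21 and Klk1b1, 12 weeks had the highest mean of the 4 ages, but the 3 later ages did not pass the F test (adjusted p = 0.144, 0.106, 0.199 and 0.144 from limma). Klk1b5 kept an adjusted p of 0.0365 without the 4 arrays with high Dcpp1, and Klk1b16 one of 0.0437. Of the 11 tubule genes 2 were then lasting higher, 3 were with Dcpp1 as a covariate, and 4 were without mouse 4 or mouse 5 at 4 weeks. The count was 7 with signal spread as a covariate or quantile normalization, and 9 with cyclic loess.

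**Figure D2:**
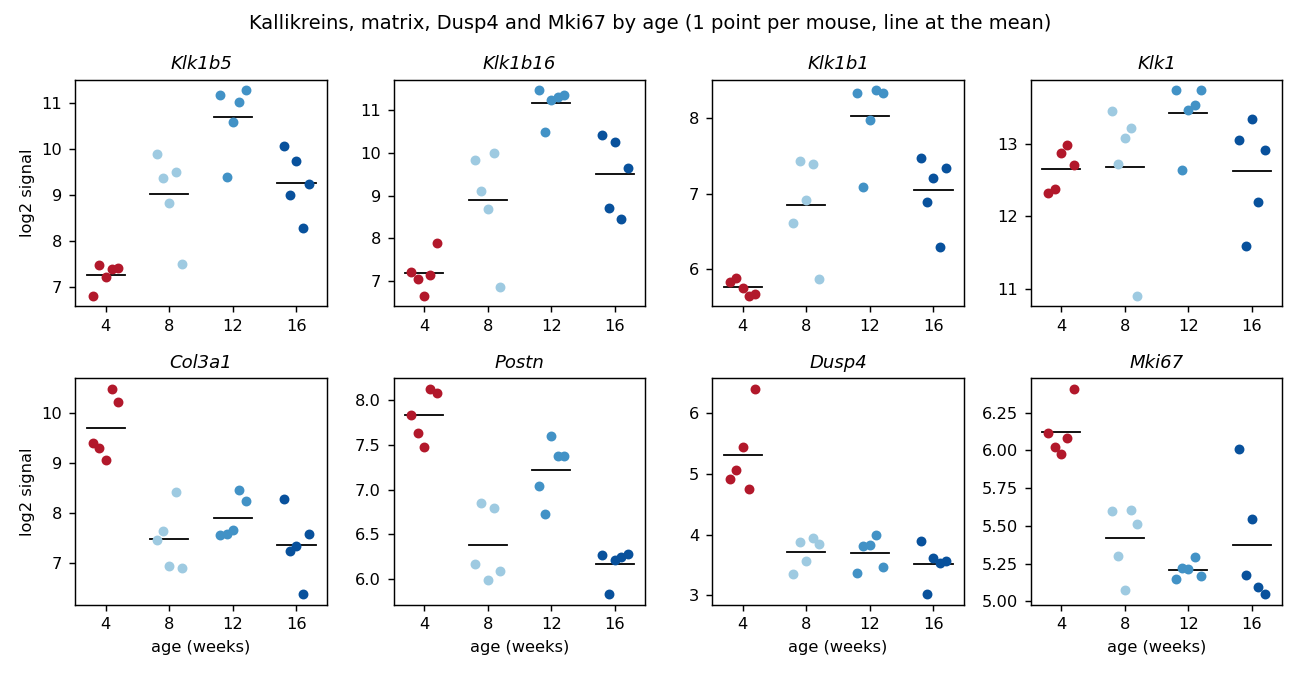
Log2 signal (vertical axes) by age in weeks (horizontal axes) for 8 genes, a point for each mouse and a black bar at the age mean. Klk1b5, Klk1b16 and Klk1b1 were higher at the later ages and Klk1 was not shifted past the test, whereas Col3a1, Postn, Dusp4 and Mki67 were highest at 4 weeks.

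The promoters of the kallikreins that rose are shown because they are near copies of each other. Each sequence comes from RefSeq (GRCm38.p6) and runs from 250 bases before to 50 bases from the start of the gene. Capitals mark TTTAAA, a variant of the TATA box, which was searched on both strands and chosen after the sequences were seen.
Klk1b5, chr7:44216224-44216523, + strand: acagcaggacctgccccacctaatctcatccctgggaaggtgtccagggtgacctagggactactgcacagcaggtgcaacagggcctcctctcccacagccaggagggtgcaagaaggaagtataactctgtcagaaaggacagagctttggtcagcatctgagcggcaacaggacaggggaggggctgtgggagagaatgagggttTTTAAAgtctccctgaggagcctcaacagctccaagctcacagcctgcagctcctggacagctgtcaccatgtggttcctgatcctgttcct
Klk1b16, chr7:44137040-44137339, + strand: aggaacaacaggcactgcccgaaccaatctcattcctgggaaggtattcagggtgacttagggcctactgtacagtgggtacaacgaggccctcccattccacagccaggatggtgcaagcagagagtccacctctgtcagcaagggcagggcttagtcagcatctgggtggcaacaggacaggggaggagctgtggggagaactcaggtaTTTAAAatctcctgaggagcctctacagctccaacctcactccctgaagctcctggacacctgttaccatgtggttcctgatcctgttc
Klk1b1, chr7:43966501-43966800, + strand: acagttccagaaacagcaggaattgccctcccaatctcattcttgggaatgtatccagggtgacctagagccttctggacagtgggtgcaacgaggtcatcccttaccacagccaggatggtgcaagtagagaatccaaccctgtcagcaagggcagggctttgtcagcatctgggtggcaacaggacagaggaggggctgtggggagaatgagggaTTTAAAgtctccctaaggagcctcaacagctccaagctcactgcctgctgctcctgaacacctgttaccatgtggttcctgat
Klk1b24, chr7:44187986-44188285, + strand: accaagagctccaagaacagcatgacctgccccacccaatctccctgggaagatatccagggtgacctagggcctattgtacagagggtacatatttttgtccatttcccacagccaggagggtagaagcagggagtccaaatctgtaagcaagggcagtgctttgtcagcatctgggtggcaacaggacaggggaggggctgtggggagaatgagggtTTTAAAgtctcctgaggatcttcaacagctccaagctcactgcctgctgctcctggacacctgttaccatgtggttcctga
In Klk1b5, Klk1b16, Klk1b1 and Klk1b24 the match began at positions -42, -39, -33 and -31 from the start of the gene. TTTAAA was present in 8 of 9 promoters of the cluster (88.9%) and in 12.1% of the 14369 promoters of measured genes. The 8 included Klk1b8, Klk1b11 and Klk1b27, which did not pass the test, so the match was not particular to the kallikreins that rose. Identity between the aligned promoters ran from 80.2% to 97.7%, highest between Klk1b21 and Klk1b24. The Klk1 promoter, with no TTTAAA in its window, was 85.5% identical to that of Klk1b5 over 207 aligned bases. The annotated start of Klk1b21 lies further upstream, so its match began at position 5. The window of Klk1 likewise ends on letters that stand directly before TTTAAA in Klk1b24, so the count of 8 depends on the annotated starts. No match of this kind shows which factors act there.

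The other genes among the 12 largest lasting rises were Serpina1c (an inhibitor of serine proteases), Lce1c (of the cornified envelope), Txn1 (thioredoxin), Gm9222, Dnm3 (a dynamin), Fam53b and Ceacam11 (a cell adhesion molecule). Their differences ran from 0.79 for Ceacam11 to 1.14 for Serpina1c, with adjusted p-values of 0.0224 to 0.0478. Fam53b was at 3.86, 4.36, 4.28, 3.88 and 4.10 at 4 weeks and at 4.39 or higher in all later mice. Only 1 of 2 probe sets of Txn1 and of Fam53b had a positive sign. Of these 7 genes Fam53b alone passed with signal spread as a covariate (adjusted p = 0.0198), and Gm9222 was the one that passed without the 4 arrays with high Dcpp1 (0.0311).

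**Figure D3:**
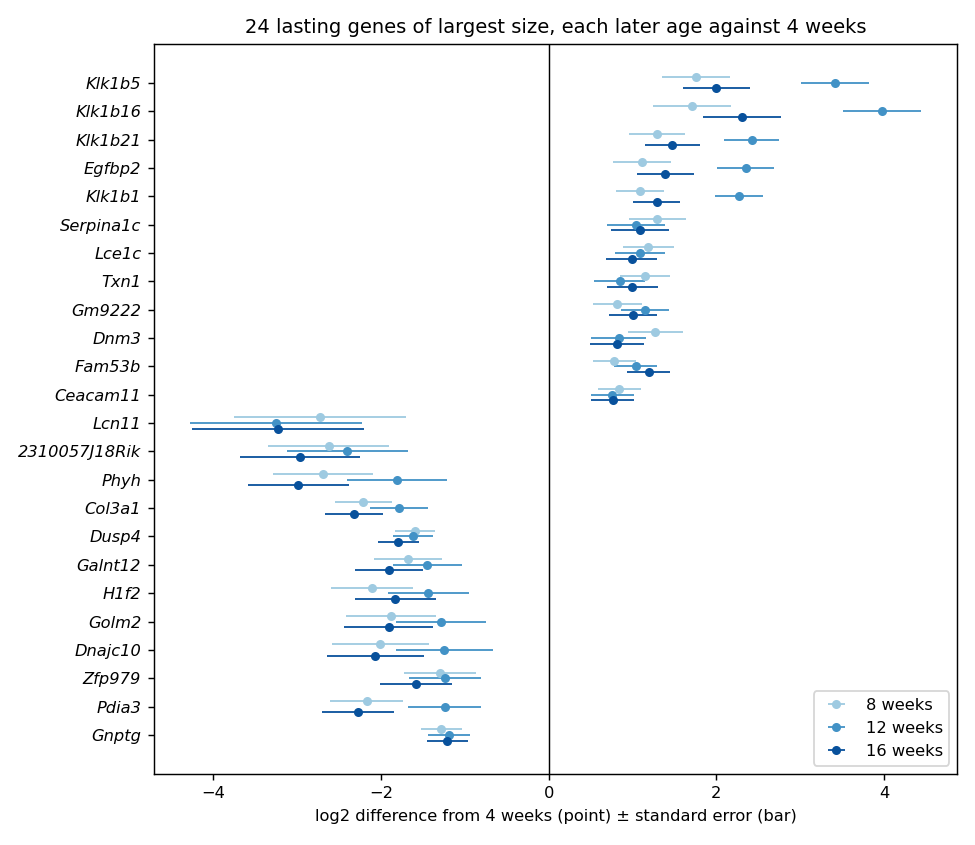
Differences from 4 weeks on the log2 scale (horizontal axis) at 8, 12 and 16 weeks for the 12 lasting higher and the 12 lasting lower genes with the largest size (vertical axis), as points with the standard error as bars. The kallikreins reached their highest differences at 12 weeks, and Lcn11 had the widest bars.

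Several genes of the matrix were lower after 4 weeks. Col3a1, the fibrillar collagen of soft and growing tissue, was at 9.40, 9.29, 9.05, 10.48 and 10.21 in juvenile mice, and later values had a lowest of 6.38, a median of 7.58 and a highest of 8.46. All 15 later mice lay below all 5 juvenile mice. Col3a1 fell by 2.10 (adjusted p = 0.000822 from limma, standard error 0.28), with differences from 4 weeks of -2.21 at 8, -1.78 at 12 and -2.32 at 16 weeks. It fell under every fit that left out 1 mouse, with the highest adjusted p at 0.00704, and by 1.75 without the 4 arrays with high Dcpp1 (adjusted p = 0.0446).

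Of 18 measured genes on the collagen list 6 were lasting lower (1.13% of all genes) and 0 were higher, with a median difference of -0.23. Col4a5, a collagen outside this list, was also lasting lower (difference -0.97, adjusted p = 0.0113). Besides Col3a1 these were Col4a2 and Col4a1, the chains of the main basement membrane collagen, Col1a1 and Col5a2, which form fibrils, and Col15a1, found near basement membranes. Col4a2 fell by 1.26 (adjusted p = 0.0112), from juvenile values of 6.28, 6.16, 6.63, 7.19 and 7.59 to a later range of 4.93 to 6.43, and only mouse 1 at 16 weeks reached the juvenile range. Col4a1 fell by 0.99 (adjusted p = 0.0369) and Col1a1 by 0.75 (adjusted p = 0.0349). Without mouse 4 or without mouse 5 at 4 weeks, 1 of the 18 genes was lasting lower. The count was also 1 with Dcpp1 as a covariate and without the 4 arrays with high Dcpp1, and 3 with signal spread as a covariate. Col1a2, the partner chain of Col1a1, had a difference of -0.77 and did not pass (adjusted p = 0.0907).

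The promoters of Col4a1 and Col4a2 are shown because these genes are read in opposite directions from a shared stretch. They overlap by 78 bases, and capitals mark CCAAT or its complement ATTGG, a motif held by 42.0% of all promoters.
Col4a1, chr8:11312777-11313076, - strand: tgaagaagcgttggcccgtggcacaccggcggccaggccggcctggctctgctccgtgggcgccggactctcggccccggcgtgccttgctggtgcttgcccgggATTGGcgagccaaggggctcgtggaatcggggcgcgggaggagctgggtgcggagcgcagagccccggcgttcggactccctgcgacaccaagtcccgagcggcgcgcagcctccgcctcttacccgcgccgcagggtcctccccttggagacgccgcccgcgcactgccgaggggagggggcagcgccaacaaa
Col4a2, chr8:11312555-11312854, + strand: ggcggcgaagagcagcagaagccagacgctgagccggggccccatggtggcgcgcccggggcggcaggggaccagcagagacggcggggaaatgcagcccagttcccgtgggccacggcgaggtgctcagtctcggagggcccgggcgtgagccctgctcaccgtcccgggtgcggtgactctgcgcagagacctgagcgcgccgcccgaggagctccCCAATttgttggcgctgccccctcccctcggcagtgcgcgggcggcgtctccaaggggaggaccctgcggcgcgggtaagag
The match began at position -145 in Col4a1 and -32 in Col4a2. Signals of both genes were lower at each later age, with differences at 8 weeks of -1.45 for Col4a1 and -1.38 for Col4a2, and of -0.85 and -1.27 at 16 weeks.

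Postn, which encodes periostin, a matrix protein of growing connective tissue, was at 7.83, 7.63, 7.47, 8.12 and 8.07 at 4 weeks. Its later values ran from 5.83 to 7.60 with a median of 6.29, and only mouse 3 at 12 weeks reached the juvenile range. It fell by 1.24 (adjusted p = 0.000787, standard error 0.16), with differences of -1.45 at 8, -0.60 at 12 and -1.66 at 16 weeks. The signal at 12 weeks was thus nearer to the juvenile one, though the later ages did not pass the F test (adjusted p = 0.0534). Of 22 measured matricellular and proteoglycan genes 3 were lower (2.24% of all genes). Postn was lasting lower, and Nid1 and Lum fell without lasting (differences of -0.71 and -0.65). Lox, which crosslinks collagen, fell by 0.68 (adjusted p = 0.0253). It was the 1 lasting gene of 26 in collagen processing and elastic fibre (1.13% of all genes were lasting lower), though only 2 of its 3 probe sets had a negative sign.

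Dusp4, a phosphatase that turns off MAP kinases, had the lowest adjusted p among all genes, together with Mthfd2. It was at 4.91, 5.06, 5.44, 4.76 and 6.40 at 4 weeks and between 3.02 and 3.99 later, so the ages did not overlap. It fell by 1.67 (standard error 0.20, adjusted p = 0.000471) with differences of -1.60 at 8, -1.62 at 12 and -1.79 at 16 weeks. Its mean signal lay at the 18.1th percentile of genes, where log2 values near background may understate a change. It fell by 1.35 without the 4 arrays with high Dcpp1 (adjusted p = 0.00546), and by 1.41 with signal spread as a covariate (adjusted p = 0.000368). Gnptg, a subunit of the enzyme that marks lysosomal proteins with mannose phosphate, fell by 1.22 with no overlap (adjusted p = 0.00775), from 5.01 to 5.72 at 4 weeks to 3.56 to 4.86 later.

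Of 39 measured cell cycle and DNA replication genes, 5 were lasting lower (1.13% of all genes) and 0 were higher, with a median difference of -0.12. Mki67, a marker of cycling cells, was at 6.12, 6.02, 5.98, 6.08 and 6.41 at 4 weeks and from 5.05 to 6.01 later. Mouse 1 at 16 weeks was the 1 later mouse in the juvenile range. Mki67 fell by 0.79 (standard error 0.13, adjusted p = 0.00844). Rrm2, which supplies deoxynucleotides, Stmn1, which acts on microtubules, and Pcna, the clamp of DNA polymerase, fell by 0.76, 0.88 and 0.92 (adjusted p = 0.0384, 0.0406 and 0.023), and so did the cyclin Ccna2, by 0.56 (0.0389). Other genes of the cycle did not pass, as Top2a had a difference of 0.298 (adjusted p = 0.303), Cdk1 one of -0.44 (0.0595) and Mcm2 one of -0.18 (0.344). Without mouse 4 at 4 weeks 1 cell cycle gene was lasting lower, and without mouse 5 none was (0 of 39). The count was 1 with Dcpp1 or with signal spread as a covariate, and 3 without the 4 arrays with high Dcpp1.

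Genes of serine synthesis and of the response to scarce amino acids formed the list with the most calls. Of 23 measured genes 15 were lower (2.24% of all genes) and 1 was higher, with a median difference of -1.15. Of these, 5 were lasting lower (Psph, Slc7a5, Mthfd2, Trib3 and Phgdh) and Slc7a11 was lasting higher. Mthfd2, a mitochondrial enzyme of one-carbon metabolism, was at 8.35, 8.14, 8.46, 9.09 and 9.25 at 4 weeks and from 5.97 to 8.38 later. It fell by 1.53 (standard error 0.18, adjusted p = 0.000471), with differences of -1.62 at 8, -0.74 at 12 and -2.23 at 16 weeks, and the 3 later ages differed (F test, adjusted p = 0.0223). Slc7a5, a carrier of large neutral amino acids, fell by 1.72 (standard error 0.22, adjusted p = 0.000787), from 8.50 to 9.70 in juvenile mice to 6.26 to 8.91 later, and also differed among later ages (adjusted p = 0.0352).

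Psph and Phgdh, which catalyse steps of serine synthesis, fell by 1.29 and 0.52 (adjusted p = 0.00775 and 0.0286), and Trib3, a pseudokinase of the stress response, by 1.12 (0.0204). Psph was at 6.15, 5.44, 5.70, 5.85 and 6.93 at 4 weeks and at or below 5.45 later, where mouse 5 at 12 weeks lay just above the lowest juvenile mouse. The cystine carrier Slc7a11 rose by 0.49 (adjusted p = 0.0315), against the direction of the list. At 12 weeks the list stood close to its juvenile level: its mean log2 signal had medians over mice of 7.95 at 4, 6.97 at 8, 7.62 at 12 and 6.61 at 16 weeks. Psat1, with differences of -2.31 at 8 and -3.50 at 16 weeks, was at -0.21 from its juvenile mean at 12 weeks and so was not lasting. Without mouse 4 or without mouse 5 at 4 weeks 4 genes of the list were lower. With signal spread as a covariate 5 were, with Dcpp1 as a covariate 2 were, and without the 4 arrays 1 was, with a median difference of -0.69.

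**Figure D4:**
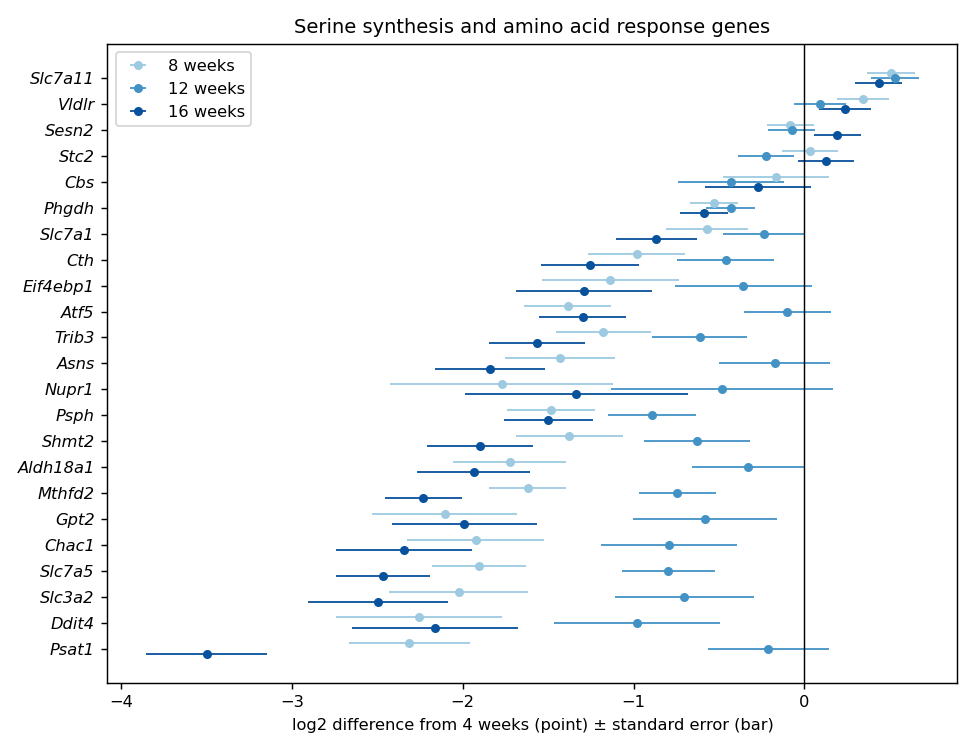
Differences from 4 weeks on the log2 scale (horizontal axis) at 8, 12 and 16 weeks for the 23 measured genes of serine synthesis and the amino acid response (vertical axis), as points with the standard error as bars. The points at 12 weeks lay closest to 0 for most genes that fell, and Slc7a11 stood to the right of 0 at each age.

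The promoters of Slc7a11 and Trib3 are shown because each holds the amino acid response element to which the transcription factor Atf4 can bind, while their genes moved in opposite directions. Capitals mark TGATGNAA or its complement.
Slc7a11, chr3:50443564-50443863, - strand: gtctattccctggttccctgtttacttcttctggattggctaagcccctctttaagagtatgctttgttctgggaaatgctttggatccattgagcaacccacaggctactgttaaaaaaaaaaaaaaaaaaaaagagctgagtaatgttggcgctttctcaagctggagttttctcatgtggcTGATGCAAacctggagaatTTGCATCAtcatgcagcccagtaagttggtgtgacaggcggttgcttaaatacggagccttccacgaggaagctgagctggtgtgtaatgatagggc
Trib3, chr2:152344011-152344310, - strand: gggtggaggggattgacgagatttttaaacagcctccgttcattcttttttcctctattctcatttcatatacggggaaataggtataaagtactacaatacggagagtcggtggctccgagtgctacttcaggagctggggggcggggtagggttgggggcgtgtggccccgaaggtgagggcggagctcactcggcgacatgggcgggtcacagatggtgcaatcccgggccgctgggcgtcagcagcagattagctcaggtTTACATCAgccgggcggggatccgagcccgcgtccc
The element was present in 6 of 20 promoters of the list (30.0%) and in 3.24% of all promoters. It was in 3 of 13 promoters of list members called lower (23.1%). Among lasting genes it was in 4.73% of promoters of lower and 6.06% of higher ones. The element was chosen after the lasting genes were seen, and the list was drawn up from genes of this response. Its share in the list is therefore a description. Slc7a11 held 2 matches, at -66 and -47, and Trib3 held 1 at position 15. The promoters of Psph, Phgdh and Mthfd2 held no such letters in their windows. Atf4 itself fell by 0.85 (adjusted p = 0.0292) and was not lasting, with a difference of -0.44 at 12 weeks.

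Several secretory genes were also lower, with wide scatter between juvenile mice. Of 29 genes of endoplasmic reticulum folding and secretion 9 were lower (2.24% of all genes) and 0 were higher, 28 had a negative difference (47% of all genes), and the median was -0.97. At an unadjusted p under 0.05, 20 were lower (13.9% of all genes). Pdia3, a disulfide isomerase for glycoproteins, and Ssr2, of the complex beside the translocon, were lasting lower. Pdia3 fell by 1.89 (adjusted p = 0.0135), from 6.36, 6.83, 8.26, 7.36 and 8.49 at 4 weeks to 3.95 to 6.86 later, with only 1 of its 2 probe sets negative, and Ssr2 fell by 1.47 (adjusted p = 0.0253). Without mouse 4, without mouse 5, with Dcpp1 as a covariate or without the 4 arrays with high Dcpp1, 0 of the 29 genes passed by limma, and 1 did with signal spread as a covariate. The median without the 4 arrays was -0.29. Of 38 oxidative phosphorylation genes 37 had a negative difference (47% of all genes), and 18 were lower at an unadjusted p under 0.05 (13.9%). By adjusted p 1 gene, Ndufs4, was lower (2.24% of all genes) and 0 were lasting. Their median difference was -0.62, with -0.85, -0.10 and -0.99 at 8, 12 and 16 weeks, and it was 0.03 with signal spread as a covariate.

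Smgc, a mucin-like product of the immature acinus that is read from the start of the Muc19 gene, was at 12.04, 11.90, 11.98, 11.88 and 11.89 at 4 weeks and between 9.45 and 11.76 later. Juvenile mice were nearly equal and all above the later ones. Smgc fell by 1.09 (adjusted p = 0.0156), with differences of -0.82 at 8, -0.70 at 12 and -1.74 at 16 weeks. Without the 4 arrays, which left only mice 1 and 2 at 4 weeks, its difference was similar at -1.11 but did not pass (adjusted p = 0.163). Its promoter is shown as that of the acinar gene that fell with no overlap of ages, with TATAAA in capitals at position -30.
Smgc, chr15:91838078-91838377, + strand: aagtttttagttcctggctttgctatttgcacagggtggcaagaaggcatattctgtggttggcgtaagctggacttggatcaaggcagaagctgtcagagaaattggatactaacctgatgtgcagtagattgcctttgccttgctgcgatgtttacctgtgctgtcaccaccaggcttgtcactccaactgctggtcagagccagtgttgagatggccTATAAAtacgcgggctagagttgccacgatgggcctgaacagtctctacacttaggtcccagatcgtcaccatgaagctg
TATAAA was present in 11.5% of all promoters.

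Several of the largest falls rested on some of the juvenile mice. Lcn11, a lipocalin, was at 10.78 and 12.10 in mice 3 and 5 at 4 weeks and between 4.54 and 5.54 in mice 1, 2 and 4, against 3.85 to 5.21 later. Its difference of -3.07 (adjusted p = 0.0478) became -0.21 without the 4 arrays with high Dcpp1 (adjusted p = 0.786). Phyh, which starts the breakdown of branched fatty acids in peroxisomes, was at 11.92 and 12.52 in the same mice 3 and 5, and at 8.51, 8.68 and 8.98 in the others, with a difference of -2.49 (adjusted p = 0.0163) that became -1.0 (0.213). Both genes were high in the same pair of mice. Golm2 (a Golgi membrane protein), Dnajc10 (a reductase of the endoplasmic reticulum) and Zfp979 (a zinc finger protein) were high in mice 3, 4 and 5 at 4 weeks and in mouse 3 at 12 weeks, which are the 4 mice with Dcpp1 above 8. Dnajc10 stood at 9.19, 10.18, 10.15 and 9.78 in these and at or below 7.21 in all others. Without these 4 arrays the differences of Golm2 and Dnajc10 were -0.298 and -0.32, and that of Zfp979 was 0.03 (adjusted p = 0.679, 0.506 and 0.971). Galnt12, which starts mucin type glycans, fell by 1.68 (adjusted p = 0.017), with a mean signal at the 8.21th percentile, and had a difference of -0.73 without these arrays (0.168).

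The pattern was otherwise in 2310057J18Rik, a gene of uncharacterised function, and in the linker histone H1f2. 2310057J18Rik was high in all 5 juvenile mice, at 11.52, 10.80, 12.01, 12.12 and 11.46, and its later values ran from 6.59 to 11.42 with a difference of -2.66 (adjusted p = 0.0275). H1f2 fell by 1.79 (adjusted p = 0.0277), from 8.86 to 10.21 at 4 weeks, and only mouse 1 at 16 weeks, at 9.42, reached the juvenile range. Neither passed without the 4 arrays, with only mice 1 and 2 left at 4 weeks (differences of -2.17 and -1.32, adjusted p = 0.333 and 0.36).

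Single genes of other lists also lasted. The natural killer cell receptor Klrd1 rose by 0.69 (adjusted p = 0.0384), the interferon induced gene Ifi209 by 0.72 (0.0156) and the steroid enzyme Hsd3b2 by 0.76 (0.0397). The macrophage gene Cd68 fell by 0.68 (adjusted p = 0.0286), the pericyte gene Rgs5 by 0.79 (0.0287), the Wnt receptor Fzd1 by 0.46 (0.0384), Cpt1a of fatty acid import into mitochondria by 0.90 (0.0333), Fdft1 of sterol synthesis by 0.70 (0.0436) and Aldh3a1 by 0.62 (0.0253). Cd68 was the 1 of 19 macrophage and complement genes that was lower (2.24% of all genes), with Adgre1 at a difference of -0.13 (adjusted p = 0.513). For Rgs5 1 of 4 probe sets had a negative sign. Igha, the heavy chain of IgA, rose by 1.92 (adjusted p = 0.0489) and was not lasting at 8 weeks, with 4.8 to 5.86 at 4 weeks and 5.68 to 10.30 later. The B cell gene Cd37 rose by 0.41 (adjusted p = 0.0466) without lasting, as did Gzmb, a granzyme of cytotoxic cells, by 0.54 (0.0418). Of the B and plasma cell list 14 of 17 genes had a positive difference, and of the T and NK cell list 17 of 19, where 47% of all genes had a negative one. At an unadjusted p under 0.05 from limma, 6 and 4 were higher (12.6% of all genes) and 1 and 0 were lower (13.9%). The defining genes Cd79b of B cells and Cd3d of T cells were among the few with a negative difference (-0.06 and -0.07, adjusted p = 0.815 and 0.799). Mean signals of the B and plasma cell list ran from 5.21 to 5.59 at 4 weeks and from 5.45 to 6.23 later, and those of the T and NK cell list from 4.96 to 5.28 and from 5.17 to 5.53. Skeletal muscle, adipocyte and red blood cell lists held 0 called genes of 18, 14 and 5 by limma, with 4, 1 and 2 higher (12.6% of all genes) and 1, 1 and 0 lower (13.9%) at an unadjusted p under 0.05. Myom2, a gene of striated muscle outside the list, rose by 0.74 (adjusted p = 0.0412), while Ckm and Acta1 had differences of 0.26 and -0.08 (0.243 and 0.726). Mean signals of the adipocyte list ran from 5.56 to 6.92 at 4 weeks and from 5.42 to 6.75 later. Lists of acinar fluid secretion, duct ion transport and myoepithelial genes held 0 called genes of 17, 20 and 17, and by the same limma fit 2, 3 and 2 were higher and 3, 2 and 8 lower at an unadjusted p under 0.05, where 12.6% of all genes were higher and 13.9% lower.

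**Figure D5:**
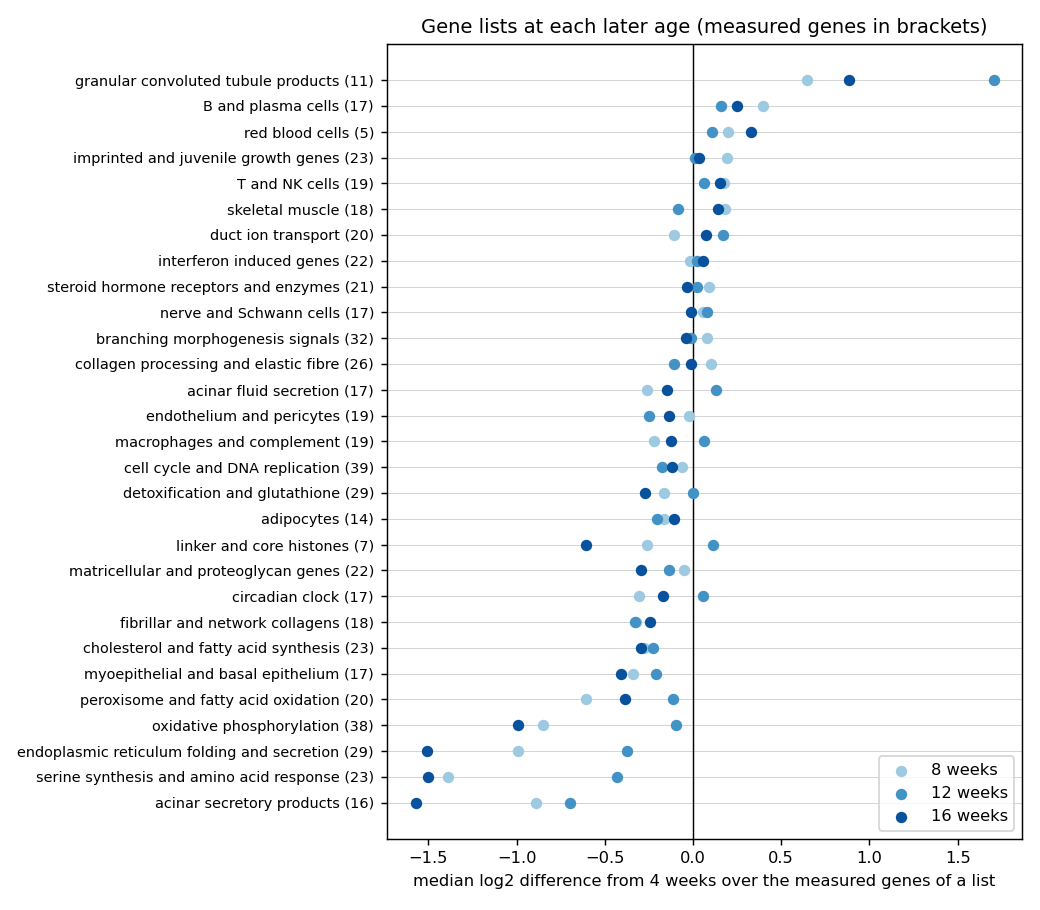
Median log2 difference from 4 weeks (horizontal axis) over the measured genes of each of 29 lists (vertical axis) at 8, 12 and 16 weeks. Granular convoluted tubule products lay farthest above 0, and acinar secretory products, serine synthesis and amino acid response, and endoplasmic reticulum folding lay farthest below it. For the 16 acinar secretory products the median difference of later ages from 4 weeks was -1.25. It was -0.37 with Dcpp1 as a covariate and -0.10 without the 4 arrays with Dcpp1 above 8.

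Most changes that were called but not lasting missed the threshold at 12 weeks. Of 202 genes that were lower but not lasting, 198 missed the threshold at 12 weeks only, and of 40 that were higher 24 did. Signal spread was also nearest its juvenile mean at 12 weeks, and its part in these counts was not tested. Ret, the receptor of glial derived growth factors, was called lower (difference -0.79, adjusted p = 0.0249) with differences of -1.53, 0.11 and -0.95 at 8, 12 and 16 weeks, and its later ages differed (adjusted p = 0.00389). The clock genes Dbp and Nr1d2 had differences of -0.25 and 0.06 at 12 weeks and of -2.68 and -1.41 at 16 weeks. Ptn, a growth factor of developing tissue, fell by 0.77 (adjusted p = 0.0467), and its difference at 12 weeks was -0.498 with an unadjusted p of 0.0622 from limma. Over all genes, 14 differed among the 3 later ages (0.0769%), of which 2 were lasting lower and 0 lasting higher. The imprinted growth genes Igf2, Peg3, Mest and Dlk1 did not pass, with differences of 0.14, 0.22, 0.22 and 0.59 (adjusted p = 0.435, 0.18, 0.259 and 0.0945).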

How the data were processed

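Salivary glands of 20 mice, 5 at each of the 4 ages, were each measured on 1 Affymetrix mouse genome array. The authors deposited log2 signals of 45101 probe sets after RMA (background correction and quantile normalization) in Expression Console 1.1, and no further normalization was made. The genome build is not given in the sources used here. Gene symbols came from the annotation of the platform, with 1 symbol for 34958 probe sets, several for 932 and no entry for 9211. Arrays give no read depth, and their number limits the precision. Correlations between arrays ran from 0.792 to 0.983.

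Age was fitted as a factor to the 20 arrays with limma 3.58.1 in R 4.3.3, with Benjamini-Hochberg adjustment over 18194 genes and a threshold of 0.05. The script was tested on simulated data. For measures of an array, exact permutation tests ran through all 15504 labelings (SciPy 1.17.1). The members and the gene lists were chosen with earlier results of these data known, so counts of list members are descriptions. Genes named were the 12 lasting higher and 12 lasting lower with the largest of the smallest differences, up to 4 lasting members of each list, and up to 2 called members of lists with none. Others named in the text (such as Klk1, Klk1b24, Psat1 and Col1a2) fall outside the rule and were chosen after their values were seen. Alternatives were other normalizations, probe set choices, filters, variance models, array weights, signal spread as a covariate, later arrays as 1 group, ages or mice left out, and other meanings of lasting. Replicate numbers served as a block in 1 alternative. The values prompted 3 later additions, covariates of Dcpp1 and of Amy1 and a fit that left out 4 arrays.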

Additional observations from a re-analysis of the deposited data

Results flagged for a closer look

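Among the 55 genes named by rule, 18 of 220 groups of 5 mice held a value far from the others, where chance gives about 1 in 20, and 6 of the 18 were mouse 3 at 12 weeks. At 12 weeks these were the high values of Galnt12 (4.27), Golm2 (6.06), Dnajc10 (9.78), Zfp979 (4.55) and Rgs5 (7.23), and the low value of Klrd1 (5.10). Low at 12 weeks were Klk1b16 (10.48) and Pcna (6.39) in mouse 2. At 16 weeks Fam53b was high in 1 mouse (6.23), and Galnt12 (2.23), Lox (3.82), Postn (5.83) and Dbp (6.41) were low in 1 mouse each. At 8 weeks Stmn1 (8.07) and Ptn (5.29) were high and Aldh3a1 (3.29) was low in 1 mouse. At 4 weeks Col1a1 was low in mouse 3 (6.09) and Cpt1a was high in mouse 5 (8.60). These are log2 signals.

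The differences from 4 weeks were not equal among the 3 later ages in 5 of the genes, by the F test of limma. The adjusted p was 0.00389 for Ret, 0.0352 for Slc7a5, 0.0223 for Mthfd2, 0.0223 for Dbp and 0.0406 for Nr1d2. In each of them the mean difference was closest to 0 at 12 weeks.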

How the results depend on the processing

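The counts of higher and lower genes after 4 weeks, and of lasting higher and lower genes, were 169, 408, 129 and 206. In the same order they were 53, 37, 52 and 34 with signal spread as a covariate, 33, 78, 33 and 78 with the later arrays as 1 group, 22, 62, 22 and 52 without arrays of 8 weeks, 98, 452, 93 and 448 without those of 12 weeks, and 19, 25, 19 and 25 without those of 16 weeks. They were 3, 6, 3 and 6 with Dcpp1 and 10, 16, 10 and 12 with Amy1 as a covariate, and 16, 119, 16 and 118 without the 4 arrays with Dcpp1 above 8, all chosen after seeing the data. The fit without the 4 arrays kept only mice 1 and 2 at 4 weeks. Cyclic loess gave 265 higher, 655 lower and 356 lasting lower genes. With lasting taken as an adjusted p under 0.05 at each age there were 5 and 3 genes, as no overlap 19 and 16, and as the same sign alone 406 lower. Leaving out 1 mouse in turn gave 7 to 755 higher, 10 to 1562 lower, 7 to 324 lasting higher and 9 to 465 lasting lower genes, lowest without mouse 4 or 5 at 4 weeks and highest without mouse 1 at 16 weeks or, for lasting lower, mouse 2 at 4 weeks. Of the 20 mice, 16 moved at least 1 count by over 1.5 times when left out, the other 4 being mice 1 and 2 at 8 weeks, mouse 3 at 12 weeks and mouse 5 at 16 weeks. Median centring, quantile normalization, the mean of probe sets, probe sets without shared probes, a filter at the 40th percentile of signal, limma-trend and array weights moved no count by over 1.5 times. The cause was not tested.

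The difference in signal spread was -0.113 over all probe sets (exact permutation p = 0.045) and ran from -0.158 to -0.0695 when 1 mouse was left out. Of 2019 values of 55 named genes under 37 settings, 1372 kept direction and call, 646 lost the call and 1 turned, that of Zfp979 without the 4 arrays (0.027, adjusted p = 0.971 from limma).

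With replicate numbers as a block the counts were 36, 130, 35 and 98. A check of pairing used a correlation other than that of whole arrays given above. Same-numbered mice at different ages had a median of 0.01 (8 of 30 pairs over 0.1). Other-numbered mice had a median of -0.0009 (44 of 120 pairs over 0.1). The numbers thus gave no sign of paired mice, and the block speaks only to this fit.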

Other observations

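Probe sets outside the gene analysis were fitted in the same way over all probe sets of the array. Of 10092 with several or no gene symbol in the annotation, 380 were lasting higher and 45 lasting lower, against 401 and 495 of 34958 with a single symbol. Of 64 control probe sets 0 lasted in either direction by limma.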
